A study of Mus musculus with 16 samples.

Results

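The enzymes that methylate lysine 4 of histone H3 (H3K4) and the core subunits they share were followed at the transcript level in mouse two-cell embryos with or without a maternal supply of KDM1A, a demethylase of this residue. The 10 genes were chosen by function: the methyltransferases Kmt2a, Kmt2b, Kmt2c, Kmt2d, Setd1a and Setd1b, and the shared subunits Dpy30, Wdr5, Ash2l and Rbbp5. All 10 were found under these symbols among the 24063 genes of the count tables, and all 10 passed the filter on low counts that left 11344 genes to test. RNA was sequenced from single embryos, 8 f/wt and 8 Δm/wt, 1 embryo per library. Both kinds of mother carried floxed Kdm1a on both chromosomes and a mixed C57BL/6J and 129 background. They were young, superovulated and mated to wild-type B6D2F1 males, and their embryos were frozen at the two-cell stage. Mothers of f/wt embryos (labelled Lsd1/Kdm1a flox/wt) had no Cre, whereas mothers of Δm/wt embryos carried Zp3-cre, expressed in oocytes only, which removes the first exon of Kdm1a. The deletion is therefore maternal, and a Δm/wt embryo keeps the intact allele from its father. Which embryos shared a mother was not given, so p-values measure the spread between these samples.

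H3K4 methyltransferases of this family work as multisubunit assemblies called COMPASS or COMPASS-like complexes. Each holds 1 catalytic SET-domain enzyme and the same core, WDR5, RBBP5, ASH2L and DPY30, without which the enzymes methylate poorly. KMT2A and KMT2B act with menin, mostly at selected promoters, KMT2C and KMT2D mainly place mono-methylation at enhancers, and SETD1A and SETD1B account for much of the tri-methylation at active promoters. In the mouse, KMT2B supplies H3K4 methylation in the oocyte, and the embryo inherits transcripts of such enzymes before its own genome becomes active.

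Among the 10 genes, Dpy30 had the clearest difference between the groups, and its annotated start sites are shown because they differ in base composition. In RefSeq (GRCm38.p6, the mm10 assembly of the files) Dpy30 lies on the minus strand of chromosome 17 and has 4 start sites. The first is at 74323944, the upper end of the gene in the annotation (chr17:74299474-74323944), and the others are at 74316433, 74316394 and 74316211. The 250 bases before the first and the second start follow, together with those before the start of Wdr5, another core subunit, written 5′ to 3′ with every CG dinucleotide in capitals.
Dpy30 first start, chr17:74323945-74324194, minus strand: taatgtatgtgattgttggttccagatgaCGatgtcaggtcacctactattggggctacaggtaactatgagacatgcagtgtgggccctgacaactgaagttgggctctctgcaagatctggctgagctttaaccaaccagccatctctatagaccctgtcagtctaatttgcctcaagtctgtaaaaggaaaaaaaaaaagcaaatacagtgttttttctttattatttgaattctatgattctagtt
Dpy30 second start, chr17:74316434-74316683, minus strand: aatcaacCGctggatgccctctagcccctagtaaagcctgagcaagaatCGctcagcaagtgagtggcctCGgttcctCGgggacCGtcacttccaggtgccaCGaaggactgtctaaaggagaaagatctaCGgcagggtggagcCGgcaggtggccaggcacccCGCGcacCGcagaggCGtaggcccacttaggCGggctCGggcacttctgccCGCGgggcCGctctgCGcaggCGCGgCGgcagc
Wdr5, chr2:27514897-27515146, plus strand: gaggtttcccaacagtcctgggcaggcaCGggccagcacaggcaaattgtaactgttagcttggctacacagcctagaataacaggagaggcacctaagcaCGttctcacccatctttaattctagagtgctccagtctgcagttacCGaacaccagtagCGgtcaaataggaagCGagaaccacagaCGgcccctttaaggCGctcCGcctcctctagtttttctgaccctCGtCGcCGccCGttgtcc
The window before the first Dpy30 start held 1 CG dinucleotide and had a GC content of 40.0%, and 92.1% of the 32851 mouse windows of the same length held at least as many CG dinucleotides. Before the second start there were 21 CG dinucleotides and a GC content of 66.0%, and 83.7% of windows held fewer. The windows before the starts at 74316394 and 74316211 had 28 and 34, and the Wdr5 window 12. Windows were also found for Kmt2a (29 CG dinucleotides), Kmt2c (48), Kmt2d (26), Setd1a (25) and Rbbp5 (10), so that 7 of the 10 genes had one; Kmt2b, Setd1b and Ash2l had none. The median over all windows was 6.

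The windows were searched on both strands for CCAAT, for the GC box spelled GGGCGG, for the TATA box spelled TATAAA and for the E box spelled CACGTG. The first of these was present before the first Dpy30 start and in no other window of the 10 genes, against 33.9% of all windows. The GC box was present for Kmt2a, Kmt2c, Kmt2d and Wdr5 and in 32.7% of all windows. Neither the TATA box nor the E box occurred in the windows of these genes (12.4% and 6.02% of all windows). The counts per gene pool all starts, so which Dpy30 start was used in either group was not measured.

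Gene counts came to between 3212510 and 9337451 per f/wt library and between 4049168 and 14334244 per Δm/wt library. The counts of f/wt 2 and f/wt 3 were closer to each other than those of any of 55 other pairs of libraries (chi-square averaged over genes 1.89, all others 45.6 to 366). They differed by little more than sampling noise, so both were added up and treated as 1 sample. Comparisons thus rest on 7 samples of f/wt and 8 of Δm/wt. The deleted gene, Kdm1a, averaged 9.998 ± 6.00 CPM (SD, n = 7; reads relative to the library's gene counts, after scaling by the trimmed mean of M-values, TMM) in f/wt and 1.24 ± 1.47 CPM (n = 8) in Δm/wt, a log2 fold change of -2.99 (edgeR adjusted p = 0.0211). All 7 two-cell markers (Zscan4c, Zscan4d, Zscan4f, Zfp352, Tdpoz4, Tcstv1 and Tcstv3) had reads, with summed levels of 211 to 1982 CPM in f/wt and 57.2 to 1193 CPM in Δm/wt. Of the 6 that were tested, Tcstv1 (log2 fold change -2.35, edgeR adjusted p = 0.00875) and Tcstv3 (-3.87, edgeR adjusted p = 5.34e-05) fell, as did 22.8% of all genes. The other 4 did not pass and had positive values: Zscan4c 0.97, Zscan4d 0.34, Zscan4f 0.68 and Zfp352 0.19. The median of the 6 was 0.27.

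Dpy30 encodes a small protein that binds ASH2L as a dimer. In f/wt its transcript was at 115 CPM in f/wt 1, 123 in f/wt 2 and 3 together, and 128, 140, 66.6, 103 and 133 in f/wt 4 to 8. In Δm/wt 1 to 8 it reached 1269, 1095, 1119, 855, 1339, 797, 1445 and 744 CPM. The groups did not overlap: the lowest Δm/wt embryo, Δm/wt 8, stood far above the highest f/wt embryo, f/wt 5. Mean levels were 116 ± 24.8 CPM (SD, n = 7) and 1083 ± 262 CPM (n = 8), which gave a log2 fold change of 3.23 ± 0.30 (SE; 9.37-fold, 6.16-fold to 14.3-fold at 2 SE on each side; edgeR quasi-likelihood test, Benjamini-Hochberg adjusted p = 3.72e-07). All 8 Δm/wt samples lay above the f/wt mean.

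Of the 10 genes, Dpy30 was the 1 that rose at an adjusted p under 0.05, none fell, and 9 did not pass. Below an unadjusted p of 0.05, edgeR had 2 higher and 0 lower, and 0 also fell by DESeq2 and by limma-voom. Over all 11344 genes, 21.9% rose and 22.8% fell. With only 10 genes, the counts of 1 and 0 were not tested against these shares. Groups that did not overlap, with every Δm/wt sample above every f/wt sample, were seen for 1 of the 10 genes and for 7.18% of all genes, and in the opposite direction for 0 of 10 and 9.04%. The median log2 fold change of the 10 was 0.50, against 0.04 for all genes tested. Without regard to sign the medians were 0.50 for the 10 and 1.604 for all genes, a difference that was not tested. Dpy30 ranked 14th of all genes by p and 866th by log2 fold change, so that many genes differed by more but few had a smaller p.

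**Figure D1:**
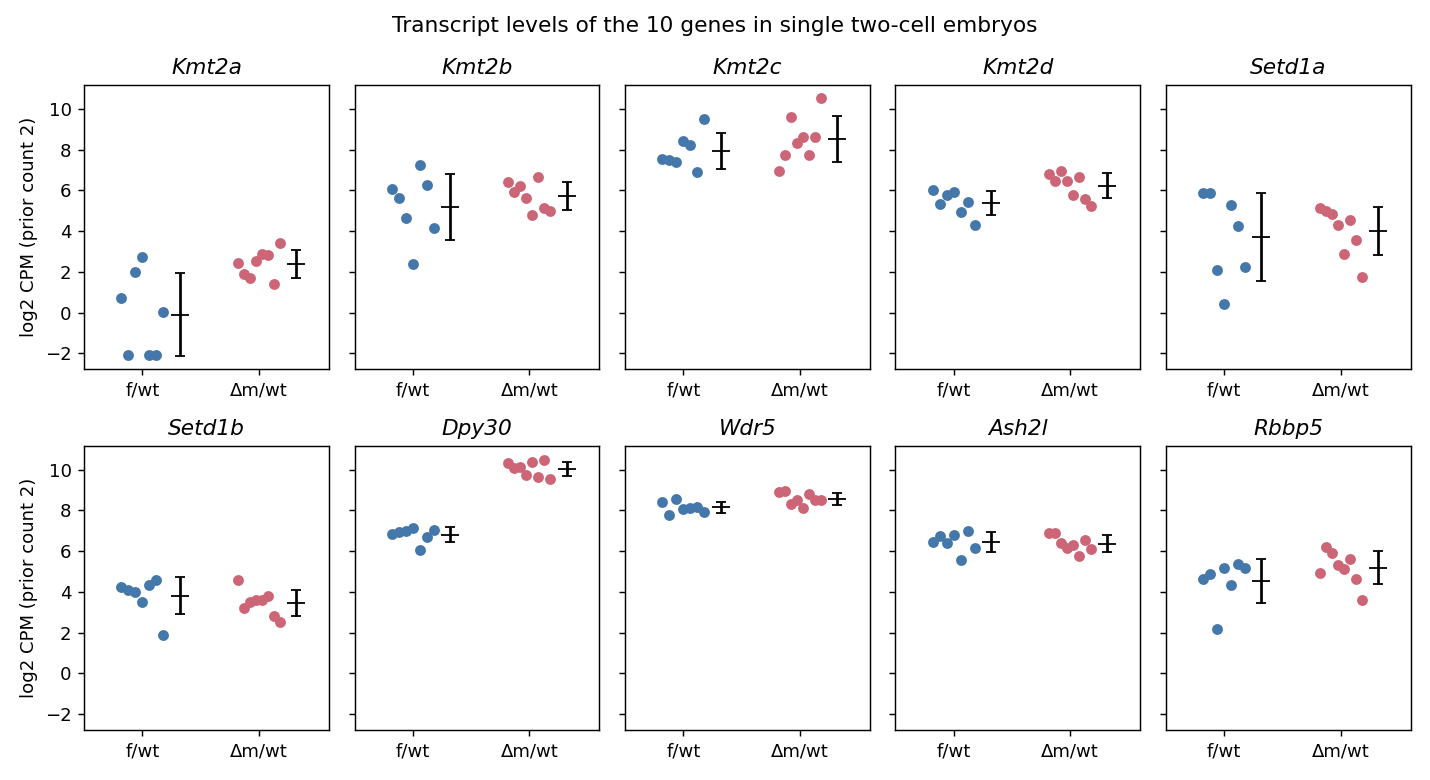
Level of each of the 10 genes per sample, as log2 CPM with a prior count of 2, for 7 f/wt (blue) and 8 Δm/wt (red) samples; the mark and bar beside each group are its mean and SD. The Dpy30 samples form separate clouds, 66.6 to 140 CPM and 744 to 1445 CPM, while the groups of the other 9 genes overlap.

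The median over all genes depended on the scaling. It was 0.04 on the log2 scale with TMM, -0.32 with gene-count totals, and 0.74 with the qPCR reference genes Hprt, Gapdh and Ppia. The share of calls that were higher in Δm/wt was 49.1% with TMM, 37.8% with totals and 69.0% with the reference genes. Dpy30 rose by 2.88 (adjusted p = 8.06e-07) and 3.92 (adjusted p = 1.26e-06) on the log2 scale under these scalings. Relative to the median of all genes its difference was 3.19 with TMM, 3.20 with totals and 3.17 with the reference genes.

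**Figure D2:**
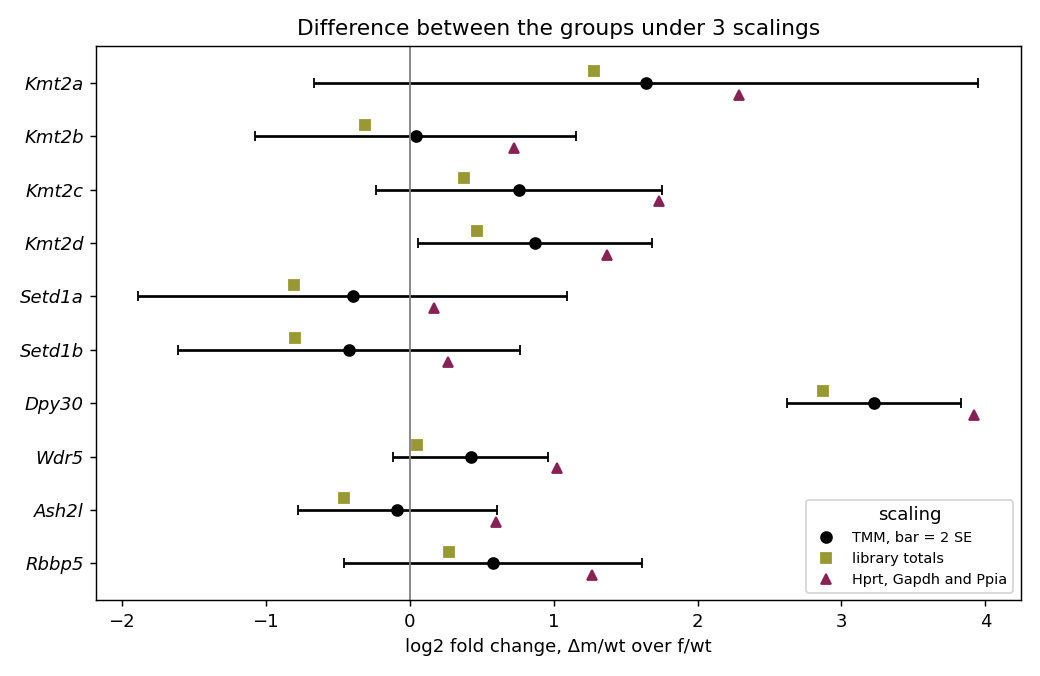
Log2 fold change (Δm/wt over f/wt) of each gene with TMM scaling (circle, bar of 2 SE on each side), scaling to library totals (square) and to Hprt, Gapdh and Ppia (triangle). Dpy30 stays between 2.88 and 3.92, while Kmt2b, Setd1a, Setd1b and Ash2l lie on both sides of 0.

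The study's numbers of reads per library part the embryos into sets, and embryos 1 to 3 and 4 to 8 were also compared within themselves. Dpy30 rose in both: from 119 ± 5.48 CPM (SD, n = 2) to 1161 ± 94.4 CPM (n = 3) in embryos 1 to 3, with a log2 fold change of 3.32 ± 0.52 (SE; edgeR adjusted p = 0.00605), and from 114 ± 30.1 CPM (n = 5) to 1036 ± 329 CPM (n = 5) in embryos 4 to 8, with 3.18 ± 0.40 (edgeR adjusted p = 6.37e-05). No other member passed in either set.

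Marker transcripts of the oocyte, which the embryo can inherit, and of other cells also differed between the groups. The summed level of 8 oocyte markers (Zp1, Zp2, Zp3, Gdf9, Bmp15, H1foo, Oosp1 and Zar1) was 1631 to 3242 CPM in f/wt and 10060 to 27480 CPM in Δm/wt. All 8 were tested and rose, beside 21.9% of all genes. Of 8 cumulus and granulosa markers 5 had reads, summing to 0 to 9.22 CPM in f/wt and 29.1 to 149 CPM in Δm/wt, mostly Cyp19a1; the defining markers Amh, Fshr and Foxl2 were at 0 in every library. Of 7 blood and myeloid markers 5 had reads, summing to 0.992 to 12.3 CPM and 9.27 to 1876 CPM, with Hbb-b1 and Hba-a1 at 0 throughout. Among the blood and myeloid markers 4 were tested and all 4 rose, and among the cumulus and granulosa markers 1 of 2 tested rose. Reads of Ptprc, a blood cell marker, were confined to Δm/wt 4 to 7. Without these 4 libraries the log2 fold change of Dpy30 was 3.13 ± 0.35 (SE, edgeR adjusted p = 2.15e-05). The Δm/wt embryos kept, 1, 2, 3 and 8, still had blood and myeloid sums of 18.6, 22.3, 9.27 and 41.2 CPM. Leaving out the libraries with Ptprc reads thus did not remove all of the blood marker difference. The part of the two-cell, oocyte, cumulus and remaining blood transcripts in the Dpy30 difference was not tested. In whole embryos stored maternal RNA and newly made RNA cannot be told apart.

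None of the other core subunits passed the test. WDR5 is a WD40-repeat protein that docks the enzyme and binds the histone tail. Wdr5 ranged from 220 to 380 CPM in f/wt (median 280) and from 276 to 494 CPM in Δm/wt (median 371). The groups overlapped, although 7 of 8 Δm/wt embryos lay above the f/wt mean. Its log2 fold change was 0.42 ± 0.27 (SE, edgeR adjusted p = 0.201), and with reference-gene scaling it was 1.03 (adjusted p = 0.0403), a call that no other alternative made. Relative to the median of all genes the Wdr5 difference was 0.385 with TMM and 0.282 with the reference genes.

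ASH2L forms, with RBBP5, the surface that activates the SET domain. Ash2l ranged from 46.7 to 127 CPM in f/wt (median 88.7) and from 53.3 to 119 CPM in Δm/wt (median 80.3), almost the same span. Its log2 fold change was -0.09 ± 0.35 (SE, edgeR adjusted p = 0.853), which at 2 SE allows anything from 0.583-fold to 1.52-fold. With reference-gene scaling the sign turned, to 0.60 (adjusted p = 0.305). Rbbp5 ranged from 4.35 CPM (f/wt 4) to 41.4 CPM in f/wt and from 12.1 CPM (Δm/wt 8) to 73.7 CPM in Δm/wt, with medians of 29.1 and 37.4. These groups overlapped as well, with a log2 fold change of 0.58 ± 0.52 (SE, edgeR adjusted p = 0.372).

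The make-up of the core subunit reads therefore differed, which is a description of genes already seen to differ and carries no test. Dpy30 took 20.1% of the reads of the 4 core subunits in f/wt 1, 25.6% in f/wt 2 and 3, and 21.4, 25.4, 16.1, 18.3 and 27.6% in f/wt 4 to 8. In Δm/wt 1 to 8 its share was 67.1, 61.4, 71.0, 64.4, 77.5, 59.1, 74.7 and 62.2%. Dpy30 thus held most of these reads in each Δm/wt embryo and a minority in each f/wt embryo. Wdr5 led in f/wt with 55.4 ± 8.37% of the reads (SD, n = 7), and its share in Δm/wt was 24.9 ± 6.09% (n = 8). These are shares of reads, not of transcript molecules. Per kilobase of transcript, a scale described below, the f/wt mean of Dpy30 (146 CPM per kb) was above that of Wdr5 (100 CPM per kb).

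Such a share does not depend on the scaling between libraries, and neither does the ratio of reads of a pair of genes. For every Wdr5 read there were 0.238 to 0.559 Dpy30 reads in f/wt and 1.77 to 4.85 in Δm/wt. For every Ash2l read there were 0.812 to 1.86 and 9.21 to 17.3. Neither ratio overlapped between the groups. Against Rbbp5 the ratio was 2.48 to 29.4 in f/wt and 14.9 to 61.3 in Δm/wt, and overlapped through f/wt 4, the sample in which Rbbp5 was lowest. The summed level of the 3 core subunits other than Dpy30 was 408 ± 55.7 CPM (SD, n = 7) in f/wt and 515 ± 98.6 CPM (n = 8) in Δm/wt.

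**Figure D3:**
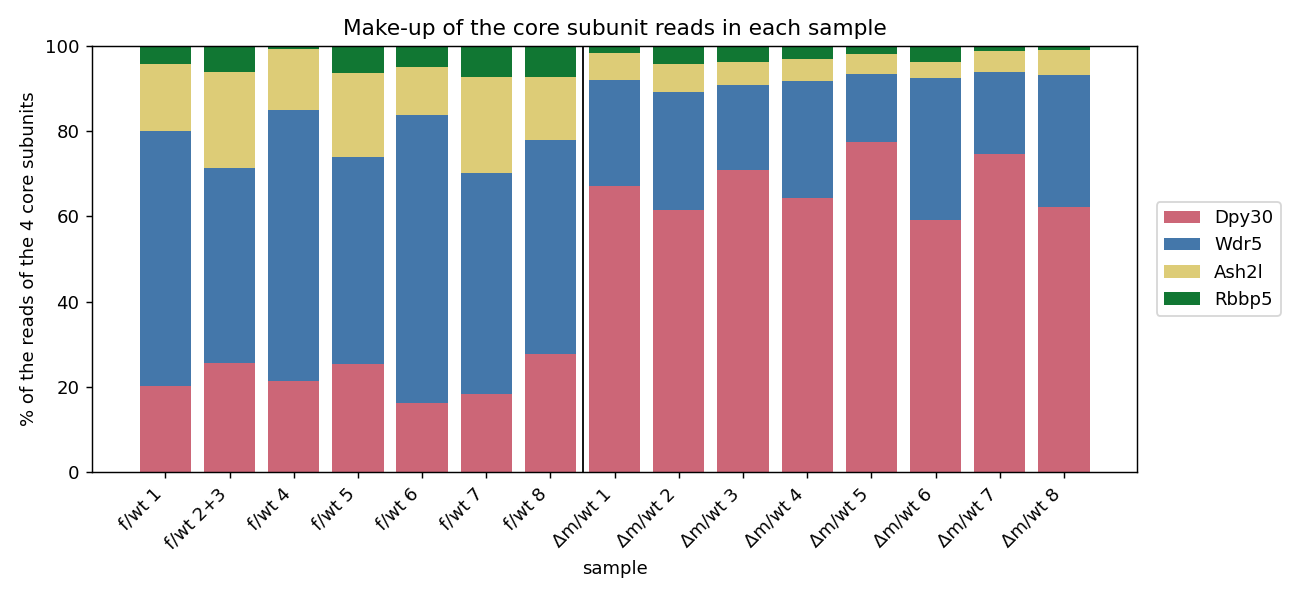
Percentage of the reads of the 4 core subunits that fell on each, per sample (stacked to 100%), for 7 f/wt samples to the left of the line and 8 Δm/wt samples to the right. The share of Dpy30 is 16.1 to 27.6% in f/wt and 59.1 to 77.5% in Δm/wt.

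Among the enzymes, the trithorax-type paralogs KMT2A and KMT2B share the menin-binding partners. Kmt2a had the fewest reads of the 10 genes. It had no read in f/wt 2, 3, 6 and 7 and 10, 44, 59 and 6 reads in f/wt 1, 4, 5 and 8, whereas Δm/wt 1 to 8 had 34, 14, 31, 44, 57, 50, 22 and 50 reads. A count of 0 allows up to 3 reads by chance, that is, as CPM of all gene counts, 0.260, 0.374 and 0.382 in the summed f/wt 2 and 3, in f/wt 6 and in f/wt 7; this limit covers counting error only. Every Δm/wt embryo thus had Kmt2a reads and lay above the f/wt mean of 1.76 CPM, but f/wt 4 and 5, at 3.75 and 6.38 CPM, fell within the Δm/wt range of 2.38 to 10.4 CPM. The log2 fold change was 1.64 ± 1.15 (SE, edgeR adjusted p = 0.251). With limma-voom it was 3.52 (adjusted p = 0.0106), and with DESeq2 1.68 (adjusted p = 0.196), so the call depended on the tool. Without f/wt 5 it was 2.46 by edgeR, and leaving out single replicates gave 1.39 to 2.46 (adjusted p 0.112 to 0.366).

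Kmt2b spread widely in f/wt, from 4.97 CPM (f/wt 5) and 17.7 CPM (f/wt 8) to 152 CPM (f/wt 6), with a median of 49.7. In Δm/wt it ranged from 27.2 to 99.2 CPM around a median of 55.3, inside the f/wt range. The means were 56.1 ± 49.7 CPM (SD, n = 7) and 57.7 ± 26.5 CPM (n = 8), and the log2 fold change was 0.04 ± 0.56 (SE, edgeR adjusted p = 0.958). At 2 SE this allows anything from 0.475-fold to 2.22-fold. Its sign turned with library-total scaling (-0.31).

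KMT2C and KMT2D are the large enhancer enzymes. Kmt2c had the most reads of the 6, at 119 to 732 CPM in f/wt (median 189) and 122 to 1497 CPM in Δm/wt (median 356). Its highest samples were f/wt 8 and Δm/wt 8, and the groups overlapped almost fully. The log2 fold change was 0.76 ± 0.50 (SE, edgeR adjusted p = 0.219), and it passed with reference-gene scaling alone (1.73, adjusted p = 0.0150). Without Δm/wt 8 it was 0.26, and leaving out single replicates gave 0.26 to 1.013. Relative to the median of all genes the Kmt2c difference was 0.719 with TMM and 0.988 with the reference genes.

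Kmt2d came nearest to the threshold among the enzymes. It was at 64.0 CPM in f/wt 1, 39.5 in f/wt 2 and 3, and 54.4, 59.5, 31.0, 42.8 and 19.4 CPM in f/wt 4 to 8, and at 110, 87.8, 123, 86.7, 55.2, 99.7, 47.6 and 37.6 CPM in Δm/wt 1 to 8. Of the 8 Δm/wt embryos, 5 exceeded every f/wt sample, while Δm/wt 5, 7 and 8 lay among them. The means were 44.4 ± 16.1 CPM (SD, n = 7) and 81.0 ± 31.0 CPM (n = 8), and the log2 fold change of 0.87 ± 0.41 (SE) had an edgeR adjusted p of 0.0862. Without Δm/wt 8 it was 0.98 (adjusted p = 0.0445), and with reference-gene scaling 1.37 (adjusted p = 0.0343). Over all alternatives its adjusted p ran from 0.0343 to 0.418, and the direction held.

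SETD1A and SETD1B are the vertebrate counterparts of the yeast SET1 enzyme. Setd1a varied with the set of embryos. Its level was 57.9 CPM for f/wt 1 and 58.3 CPM for f/wt 2 and 3, but 4.10, 1.08, 39.4, 18.7 and 4.55 CPM in f/wt 4 to 8, and at 35.3, 32.0, 28.3, 19.3, 7.05, 23.4, 11.7 and 3.14 CPM in Δm/wt 1 to 8. The log2 fold change was -0.39 ± 0.74 (SE, edgeR adjusted p = 0.686) in all samples. It was -0.83 (edgeR adjusted p = 0.217) in embryos 1 to 3, with 2 f/wt and 3 Δm/wt samples, and -0.07 (edgeR adjusted p = 0.968) in embryos 4 to 8. Its sign turned with reference-gene scaling (0.17). Setd1b ranged from 3.51 to 23.9 CPM in f/wt (median 17.0) and from 5.43 to 23.5 CPM in Δm/wt (median 11.4). These groups overlapped too, with 7 of 8 Δm/wt embryos below the f/wt mean and a log2 fold change of -0.42 ± 0.59 (SE, edgeR adjusted p = 0.579), which became 0.27 with reference-gene scaling.

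Some embryos were high or low in several enzymes at once. In f/wt 8 and Δm/wt 8 Kmt2c was at its highest in the group, taking 94.1% and 94.4% of the reads of the 6 enzymes, while Kmt2d and Setd1b were at their lowest. In f/wt 5 both Kmt2b and Setd1a were at their lowest and Kmt2a at its highest for f/wt. As a coefficient of variation between embryos, the f/wt spread was 19.3% for Wdr5, 21.5% for Dpy30, 29.3% for Ash2l and 45.4% for Rbbp5. For the enzymes it ran from 36.2% for Kmt2d to 138% for Kmt2a, so that Dpy30 was both changed and among the steadier transcripts. In Δm/wt Dpy30 varied by 24.2%.

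Ratios of paralogs within an embryo depend on scaling only through the prior count, which was scaled with the library. They were compared by an exact two-sided permutation test over samples for each of 3 pairs (smallest possible p = 1.55e-04). The log2 ratio of Kmt2a to Kmt2b was -5.30 ± 3.45 (SD, n = 7) in f/wt and -3.32 ± 1.06 (n = 8) in Δm/wt, a difference of 1.98 (exact permutation p = 0.143, adjusted over 3 pairs 0.428). In 3 of the f/wt samples Kmt2a had no read, so the prior count of 2 sets their ratio; with a prior count of 0.5 the difference was 2.86 (adjusted exact p = 0.311). Kmt2b exceeded Kmt2a in all samples but f/wt 5; without f/wt 5 the difference was 2.92 (adjusted exact p = 0.0440). For Kmt2c to Kmt2d the log2 ratio was 2.55 ± 1.34 (SD, n = 7) and 2.28 ± 1.57 (n = 8), a difference of -0.27 (exact permutation p = 0.723, adjusted 0.723), and Kmt2c had more reads than Kmt2d in every sample. Its sign turned without f/wt 8 (0.17) and without Δm/wt 1 (0.03). For Setd1a to Setd1b the values were -0.09 ± 1.83 (SD, n = 7) and 0.55 ± 0.89 (n = 8), a difference of 0.64 (exact permutation p = 0.401, adjusted 0.602), and either paralog could lead.

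**Figure D4:**
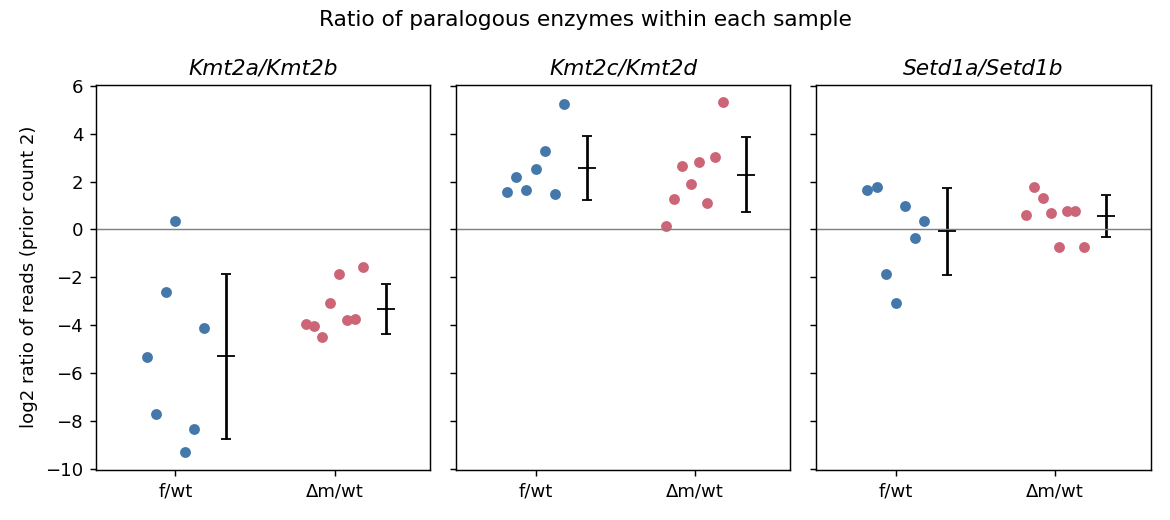
Log2 ratio of reads of 3 pairs of paralogous enzymes within each sample (prior count of 2), for 7 f/wt (blue) and 8 Δm/wt (red) samples, with the mean and SD beside each group; the line at 0 marks equal reads. The groups overlap for each pair, and f/wt spans -9.31 to 0.34 for Kmt2a over Kmt2b.

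Levels of different genes were set side by side per kilobase of the longest coding transcript. The reads were taken mainly from 3′ ends, so this division understates long mRNAs such as those of the Kmt2 genes, and the order describes this scale only. In f/wt it was Dpy30 (146 ± 31.4 CPM per kb, SD, n = 7), Wdr5 (100 ± 19.3), Ash2l (27.5 ± 8.07), Kmt2c (19.4 ± 14.0), Rbbp5 (8.05 ± 3.65), Kmt2b (6.62 ± 5.88), Setd1a (4.05 ± 3.91), Kmt2d (2.24 ± 0.81), Setd1b (1.77 ± 0.75) and Kmt2a (0.107 ± 0.148). The ranges of each gene and the next in this order overlapped except between Wdr5 and Ash2l and between Setd1b and Kmt2a. In Δm/wt Dpy30 stood at 1372 ± 332 CPM per kb (SD, n = 8) and Wdr5 at 134 ± 26.6, and these no longer overlapped; Kmt2a was again last at 0.336 ± 0.161.

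Gene positions limit some of these counts. Dpy30 overlaps no other annotated gene in GENCODE, and its nearest copy was a processed pseudogene, Gm2059, matching 291 bases at 91.8% identity. Kmt2d (chr15:98831669-98871205) has a pseudogene copy of 455 bases at 99.6%, Rbbp5 (chr1:132477367-132505665) one of 790 bases at 96.8% and Ash2l (chr8:25816001-25847694) one of 974 bases at 90.3%. Setd1a (chr7:127777389-127800119) shares 3527 bases with Gm49388 on the same strand, and Setd1b (chr5:123142193-123168630) has an antisense neighbour. Kmt2a (chr9:44803355-44881274) overlaps Gm48314 on its own strand and AC061963.1 on the other, and matches AC061963.1 over 381 bases at 100% identity. Kmt2c (chr5:25271794-25498783) overlaps 4 annotated genes, Gm20432 on its own strand and Gm18343, Gm42585 and Hspe1-ps3 on the other, and matches Gm42585 over 275 bases at 100% identity. Reads of these genes could in part come from, or be lost to, those neighbours. The neighbours are those of GENCODE, whereas the counts used the RefSeq annotation, and which of them were in that annotation was not checked. Kmt2b lies at chr7:30568855-30588726 and Wdr5 at chr2:27515147-27536538.

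Subunits found in only some of the complexes, here called complex-specific, were counted next. Of 11 such genes, all tested, 3 rose (21.9% of all genes did), 0 fell (22.8%) and 8 did not pass, with a median log2 fold change of 0.94 (0.04 for all genes). Wdr82, which brings the SETD1 complexes to RNA polymerase, averaged 125 ± 67.7 CPM (SD, n = 7) for f/wt and 302 ± 63.8 CPM (n = 8) for Δm/wt (log2 fold change 1.27 ± 0.35, SE, edgeR adjusted p = 0.00574). Paxip1, of the KMT2C and KMT2D complexes, went from 53.6 ± 16.4 to 124 ± 70.2 CPM (1.21 ± 0.41, edgeR adjusted p = 0.0212). Hcfc2, a host cell factor of the menin-bound complexes, went from 12.0 ± 9.05 to 44.0 ± 14.8 CPM (1.87 ± 0.56, edgeR adjusted p = 0.00993). For each of these 3 genes the groups overlapped. Without the 4 libraries with Ptprc reads the same 3 rose; with library-total scaling Paxip1 no longer passed (0.85, adjusted p = 0.1204), and in embryos 4 to 8 none of them passed and 1 gene rose, Ncoa6. Ncoa6, of the KMT2C and KMT2D complexes, had a log2 fold change of 1.02 (edgeR adjusted p = 0.0537) and passed by DESeq2 (adjusted p = 0.0370), by limma-voom (0.0475) and with reference-gene scaling (0.00500). Psip1, the chromatin reader bound to menin, was at 0.47 (adjusted p = 0.422).

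Other SET-domain proteins linked to H3K4 gave no call: of 7, 4 were tested, 0 rose and 0 fell by edgeR, with 1, Prdm9, at an unadjusted p of 0.0346, which passed by DESeq2, limma-voom and edgeR with library totals. Prdm9, the enzyme of meiotic recombination sites, had a log2 fold change of -1.56 (edgeR adjusted p = 0.0704) and Ash1l of -0.64 (adjusted p = 0.387). On the removing side, 5 of 6 H3K4 demethylases were tested and 3 fell, 1 of them the deleted gene Kdm1a (22.8% of all genes fell). Kdm5b went from 344 ± 99.8 to 18.9 ± 15.4 CPM (log2 fold change -4.19 ± 0.50, SE, edgeR adjusted p = 3.10e-06) and Kdm5a from 91.2 ± 18.6 to 5.82 ± 5.42 CPM (-3.96 ± 0.65, edgeR adjusted p = 8.15e-05), neither with overlap (9.04% of all genes were lower without overlap). Kdm1b (-0.07, adjusted p = 0.945) and Kdm5c (-1.05, adjusted p = 0.196) did not pass. The median of the 5 was -2.99. Without the libraries with Ptprc reads Kdm5a and Kdm5b still fell and Kdm1a did not pass (-2.61, adjusted p = 0.109), nor did it with reference-gene scaling (-2.08, adjusted p = 0.130).

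Of 13 proteins that read methylated H3K4, all tested, 2 rose, 4 fell and 7 did not pass, beside 21.9% and 22.8% of all genes that rose and fell; the median was 0.36. The 4 that fell were Ing4 (log2 fold change -4.45), Dido1 (-2.86), the remodeller Chd1 (-2.32) and Ing1 (-2.08), each without overlap between the groups, as for 9.04% of all genes. The 2 that rose, Spin1 (1.44) and the general transcription factor subunit Taf3 (1.33), are named after their values were seen. Bptf (0.24) and Phf8 (0.23) did not pass. Without the libraries with Ptprc reads the same 2 rose and the same 4 fell. With library-total scaling Taf3 no longer passed (0.91, adjusted p = 0.0691) and the median of the 13 was -0.01. Taf3 did not pass in embryos 4 to 8 either (edgeR adjusted p = 0.0798), and in embryos 1 to 3 Chd1 (0.0757), Ing1 (0.0897) and Taf3 (0.0993) did not pass by the same adjusted p.

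**Figure D5:**
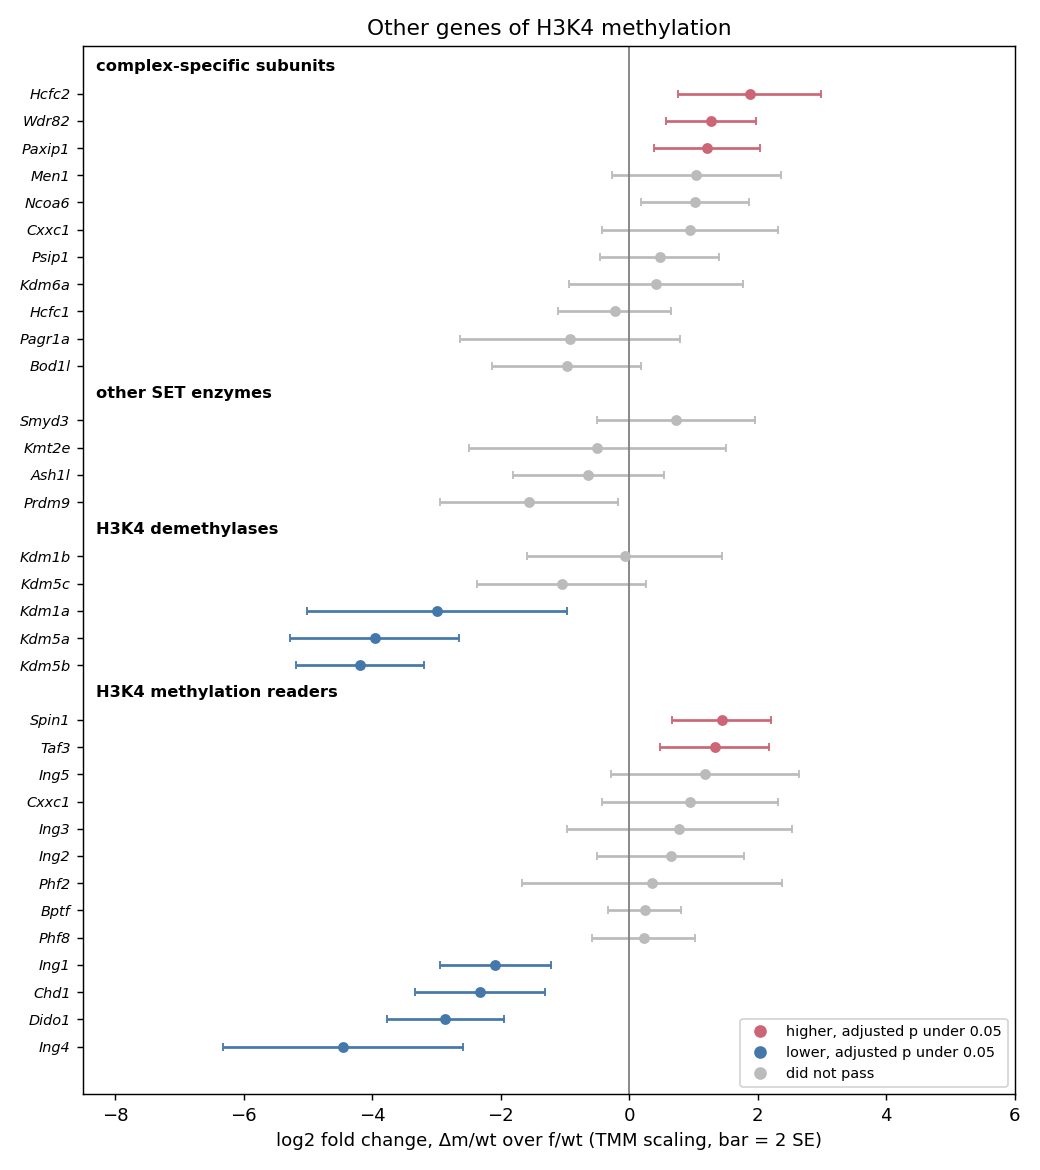
Log2 fold change (Δm/wt over f/wt, TMM scaling, bar of 2 SE on each side) of the tested complex-specific subunits, other SET-domain proteins, H3K4 demethylases and H3K4 readers, coloured by direction where the edgeR adjusted p was under 0.05 and grey otherwise. The complex-specific subunits hold 3 that rose and 0 that fell, and the demethylases 0 that rose and 3 that fell; Cxxc1 appears in 2 lists.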

How the data were processed

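Single-embryo cDNA was made with an oligo-dT method and read as short single-end Illumina reads. The authors aligned reads to mm10 with TopHat2 (2.0.6), kept unique best alignments and counted them per RefSeq gene with HTSeq (0.6.1). The deposited raw counts were used. Strand setting and annotation release were not given in the sources used here, and reads carried no molecular identifiers. The authors' gene tests used DESeq (1.16.0). The repeat counts were not used. As in the study, genes at 0 everywhere were removed and the top 60% by summed count were tested. In R (4.3.3), edgeR (4.0.16) quasi-likelihood tests with TMM scaling compared 7 f/wt and 8 Δm/wt samples, with Benjamini-Hochberg adjustment and a threshold of 0.05; DESeq2 (1.42.0), limma-voom (limma 3.58.1), other scalings, filters, sets of embryos and leaving out each replicate were alternatives. The values are CPM, with a prior count of 2 on the log2 scale. Lengths came from GENCODE M21 and promoter windows from RefSeq. Near copies were found with blastn.

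All 10 members were named. For related lists, up to 4 members that passed with the largest absolute log2 fold change and at least 10 CPM were named, and up to 2 of the most abundant that missed the threshold. Members and lists were chosen with earlier results of these data known. Leaving out the libraries with Ptprc reads and embryos 1 to 3 alone were chosen after seeing the data.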

Additional observations from a re-analysis of the deposited data

Results flagged for a closer look

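Single samples far from the rest of their group, by Dixon's test on CPM, were found in 9 of 62 groups of samples of the named genes. Chance flags about 1 in 20 where values are normally distributed, which untransformed CPM need not be, so no excess is read from this number. Among the enzymes, Kmt2c was at 732 CPM in f/wt 8 and Setd1b at 23.5 CPM in Δm/wt 1, each the highest of its group. Among complex-specific subunits and other SET-domain proteins, Paxip1 was at 86.1 CPM in f/wt 1, Ash1l at 36.2 CPM in Δm/wt 8 and Prdm9 at 45.9 CPM in f/wt 5. Among demethylases, Kdm5b was at 53.0 CPM in Δm/wt 1, which stayed below every f/wt sample, and Kdm1b at 760 CPM in Δm/wt 8. Among readers, Ing4 was at 6.37 CPM in Δm/wt 7 and Phf8 at 174 CPM in Δm/wt 3. No Dpy30 sample stood apart in this way.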

How the results depend on the processing

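Dpy30 rose under all 29 alternatives, with log2 fold changes of 3.10 to 3.29 when single replicates were left out and 2.88 to 3.92 otherwise (adjusted p 4.75e-30 to 0.00605), and 0 of the 10 genes fell under any of them. The number that rose was 4 with reference-gene scaling (Kmt2c, Kmt2d, Dpy30 and Wdr5) and 2 with limma-voom (Kmt2a and Dpy30). Leaving out replicates gave 1 to 2, the second being Kmt2d without Δm/wt 8. Genes near 0 changed sign, and none of these values passed. With reference-gene scaling Ash2l was at 0.60, Setd1a at 0.17 and Setd1b at 0.27. Setd1a was at 0.31 with limma-voom. Kmt2b was at -0.31 with library totals, -0.009 with DESeq2, -0.14 without a filter, 0 to 3 decimals with filterByExpr, -0.19 in embryos 4 to 8 and -0.043 with a term for the sets of embryos. Ash2l was at 0.16 in embryos 1 to 3, where Kmt2a fell below the filter and was not tested, and at 0.028 without the libraries with Ptprc reads. Leaving out single replicates gave -0.29 to 0.52 for Kmt2b and -0.29 to 0.003 for Ash2l.

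Leaving out single replicates, the paralog differences ran from 1.32 to 2.92 for Kmt2a/Kmt2b, from -0.70 to 0.17 for Kmt2c/Kmt2d and from 0.14 to 0.94 for Setd1a/Setd1b; Kmt2c/Kmt2d was 0.006 in embryos 4 to 8. Over all genes, 3540 rose and 1594 fell with reference-gene scaling, 1465 and 1675 in embryos 4 to 8, and 1535 and 2189 without the libraries with Ptprc reads (median of all genes -0.27). The causes were not tested.

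Embryo numbers did not pair the samples: over 7 pairs the correlation of deviations ran from -0.07 to 0.14, 1 was above 0.1, and 2 samples correlated best with their own number. The summed f/wt 2 and 3 carried number 2, which left Δm/wt 3 without an f/wt sample of its number or set. In the edgeR fits with the replicate block or the term for the sets, Δm/wt 3 thus added nothing to the group difference. With the replicate block Dpy30 was at 3.21 (adjusted p = 1.37e-05), 1 of the 10 genes rose and 0 fell, Setd1a was at 0.083, the paralog differences were 2.15, -0.33 and 0.53 (adjusted exact p 0.328, 0.516 and 0.516), and over all genes 2195 rose and 2378 fell. Kmt2a had the fewest reads, 0 to 59 per library.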
